A study of Triticum aestivum with 8 samples.

Results

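Loci that were accessible in young wheat endosperm and had no counterpart in the later seed were examined in the accessible chromatin regions (ACRs) of developing grain. ATAC-seq maps such regions with the Tn5 transposase, which inserts sequencing adapters where DNA is free of nucleosomes, and the study used it to follow regulatory DNA while the grain fills. The grain came from the bread wheat cultivar AK58 (AiKang58), grown in a greenhouse after vernalization, and nuclei were sorted by flow cytometry before the transposase was added. Endosperm with the embryo taken out was sampled at 5 and 9 days (DAP5 and DAP9), and whole seed, embryo included, at 15 and 20 days (DAP15 and DAP20). Each stage had 2 sample records but only 1 list of ACRs, attached to the record of replicate 1.

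The lists held positions without read numbers. Depth was therefore unknown, and no difference between stages could be judged against replicate error. Stage and tissue changed together between DAP9 and DAP15, and their effects cannot be told apart. A locus without an ACR in the seed lists may have been closed, open in fewer nuclei of the mixed tissue, or just under the authors' density minimum, and these cannot be told apart either. No gene annotation of the build behind the coordinates was used, so that neither the tissue labels nor the loci could be checked against marker genes.

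The endosperm of cereals starts as a syncytium, a cell with many nuclei that divide without walls between them. Walls then form, the cells divide and take on their types, and the central cells turn to filling with starch and storage protein. ACRs usually mark promoters and enhancers, where transcription factors bind. DAP5 and DAP9 lie in the early part of this course and DAP15 and DAP20 in the filling phase.

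ACRs of all 4 lists that shared at least 1 bp were merged into 180461 loci. The 15008 loci examined here are called endosperm-only loci below, after the lists in which they occur. Whole seed also contains endosperm, so the name does not mark them as specific to a tissue. They were chosen by the presence of ACRs of both DAP5 and DAP9 and the absence of ACRs of DAP15 and DAP20. They made up 8.32% of all loci (Wilson 95% interval 8.19 to 8.44%, which covers counting error only, here and for the other shares). Presence in the lists thus defined them, and their number is a description. The same holds for the 74599 loci with ACRs of both DAP5 and DAP9, of which 20.1% were endosperm-only (19.8 to 20.4%). Of the rest of these, 57.5% also had ACRs of DAP15 and DAP20 (loci of every list, 42864), 14.0% had an ACR of DAP15 but not DAP20 (10411 loci), and 8.47% had an ACR of DAP20 but not DAP15 (6316 loci). A mirror set, with ACRs of DAP15 and DAP20 and none of DAP5 or DAP9, held 8317 loci.

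Endosperm-only loci were simple in structure. In 14595 of them (97.2%), 1 DAP9 ACR lay over 1 DAP5 ACR. In 205 loci, 1 DAP9 ACR met 2 DAP5 ACRs, and in 179 loci 2 DAP9 ACRs met 1 DAP5 ACR. Of the 42864 loci of every list, 38298 also had 1 ACR at DAP9 and 1 at DAP5. Single ACRs were thus usual there too. Together the endosperm-only loci held 15219 DAP9 ACRs (15.0% of that list) and 15240 DAP5 ACRs (14.0% of that list). These ACRs covered 9.50 Mb at DAP9 and 10.3 Mb at DAP5, which was 11.9% and 12.5% of the covered length of the lists. The endosperm-only loci therefore took a smaller part of the length than of the number of ACRs in both lists.

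The loci were narrow. Their median width was 686 bp (quartiles 519 and 950 bp, range 342 to 4922 bp), against 800 bp for loci missing at DAP15 alone, 950 bp for loci missing at DAP20 alone and 1111 bp for loci of every list (quartiles 800 and 1626 bp). The rule has a part in this order, since the endosperm-only loci merge ACRs of 2 lists and the others ACRs of 3 or 4. DAP9 ACRs in endosperm-only loci had a mean width of 624 bp, against 786 bp over the whole DAP9 list, and DAP5 ACRs 673 bp against 756 bp over the whole DAP5 list. The most frequent widths were 350 bp (30.1% of these ACRs at DAP9 and 23.5% at DAP5) and 500 bp (24.9% at DAP9 and 20.2% at DAP5). These widths belong to a ladder with steps of 150 bp. Off the ladder lay 0.762% of the ACRs at DAP9 and 16.1% at DAP5, a difference that the whole lists also had (1.92% and 18.2%).

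The share of endosperm-only loci fell with the width at DAP9. Among loci with ACRs of both DAP5 and DAP9, it was 34.6% where the DAP9 ACRs covered up to 350 bp (33.8 to 35.5%), 23.8% over 500 and up to 650 bp (23.0 to 24.7%), 14.7% over 800 and up to 950 bp (13.8 to 15.5%) and 2.90% over 1700 bp (2.52 to 3.34%). The narrowest class exceeded the widest on 21 of 21 chromosomes. The width at DAP5 separated the loci less, with 26.6% up to 350 bp (25.9 to 27.3%), 25.3% over 350 and up to 500 bp (24.6 to 26.0%) and 4.89% over 1700 bp (4.40 to 5.44%). A wide locus offers more base pairs to meet a seed ACR, and the part of this in the fall was not tested. Every ACR was also replaced by 350 bp around its midpoint. The split of this setting by width was added after the data were seen. The share was then 35.3% where the widest DAP9 ACR had up to 350 bp (34.5 to 36.2%) and 13.2% where it had over 1250 and up to 1700 bp (12.4 to 14.2%). Over 1700 bp, however, it was 21.8% (20.5 to 23.0%). With ACRs as deposited and the same classes by the widest DAP9 ACR, that share was 2.82% (2.41 to 3.28%), so for the widest loci the low share held for ACRs as deposited and not for those cut to 350 bp. A wide ACR cut to 350 bp can also miss a seed ACR that lies elsewhere in it, so the cut does not set width apart.

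**Figure D1:**
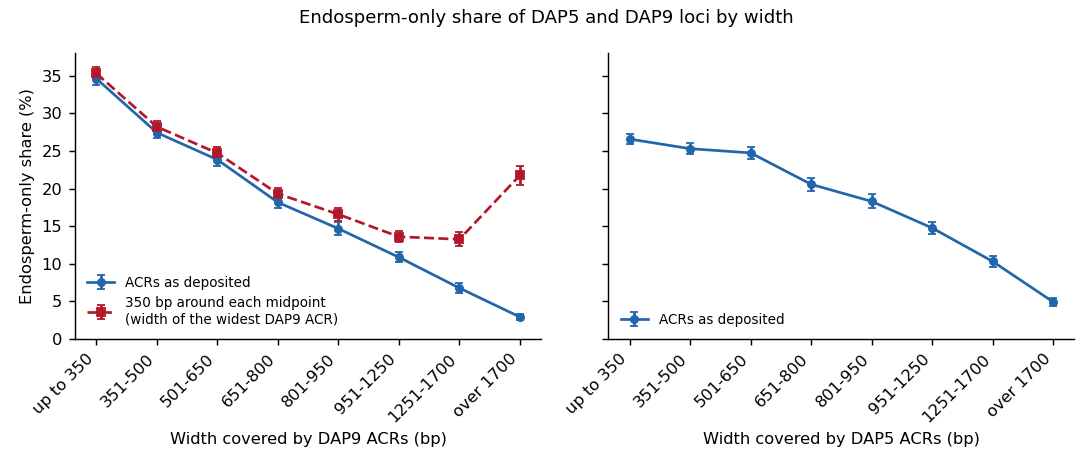
Share (%) of endosperm-only loci among loci with ACRs of both DAP5 and DAP9, by the width in bp that the DAP9 ACRs (left) or the DAP5 ACRs (right) covered in the locus. Blue points are ACRs as deposited, red squares are ACRs of 350 bp around each midpoint, placed by the width of the widest DAP9 ACR, and bars are Wilson 95% intervals. As deposited, the share is 34.6% in the narrowest and 2.90% in the widest class of DAP9.

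In the 14595 loci with 1 ACR per list, the DAP9 and DAP5 ACRs lay close together but rarely at the same place. Their midpoints were a median of 74 bp apart (quartiles 32 and 143 bp), and the overlap had a median of 431 bp (quartiles 346 and 610 bp). Start and end were both identical in 33 loci (0.226%). The DAP9 ACR lay inside the DAP5 ACR in 4110 loci (28.2%, 27.4 to 28.9%) and the DAP5 ACR inside the DAP9 ACR in 2664 loci (18.3%, 17.6 to 18.9%), while 7788 loci (53.4%) had staggered ends. Each ACR covered at least 50% of the other in 84.2% of the loci (83.6 to 84.8%). In loci of every list with 1 ACR at DAP9 and at DAP5, that share was 89.9% (89.6 to 90.2%).

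Endosperm-only loci were more often narrower than wider at DAP9. The covered width averaged 633 ± 328 bp at DAP9 and 684 ± 386 bp at DAP5 (SD over 15008 loci), a mean difference of -50.7 bp. It was smaller at DAP9 in 6220 loci (41.4%, 40.7 to 42.2%), larger in 5023 loci (33.5%, 32.7 to 34.2%) and equal in 3765 loci (25.1%). The difference was at most 150 bp in 9645 loci (64.3%). Loci of every list went the other way, with 32.0% narrower (31.6 to 32.4%) and 47.2% wider at DAP9 (46.7 to 47.7%), and a mean difference of 37.7 bp. The share of wider loci was lower in the endosperm-only loci than in loci of every list on 21 of 21 chromosomes.

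The contrast was also found at equal DAP5 width. Where the DAP5 ACRs covered 500 bp, 31.5% of the endosperm-only loci were wider at DAP9 (29.9 to 33.2%), against 49.3% of the loci of every list (48.0 to 50.7%). Where they covered 800 bp, these shares were 18.7% (16.7 to 20.9%) and 40.3% (38.7 to 42.0%). Loci that were missing from a single seed list lay between. Where only the DAP15 ACR was missing, 37.5% were wider (36.3 to 38.7%) and 38.3% narrower (37.1 to 39.5%), with a mean difference of -34.8 bp, on the same side of 0 as in the endosperm-only loci. Where only the DAP20 ACR was missing, 43.2% were wider (42.3 to 44.2%) and 34.7% narrower (33.8 to 35.7%). The rule used the presence of ACRs and not their width as such. Still, a locus that is wider at DAP9 offers more base pairs to meet a seed ACR and so to leave the set. The part of the rule in this contrast was not tested. Widths and presence also come from the same lists, so these shares were not tested.

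Chromosome 2D was the exception. Of its 890 endosperm-only loci, 47.0% were wider (43.7 to 50.3%) and 33.1% narrower at DAP9, whereas on the other 20 chromosomes between 28.1% and 37.9% were wider and between 37.9% and 50.5% narrower. The mean difference on 2D was 9.97 bp, against -90.0 to -10.7 bp elsewhere. Loci of every list on 2D were shifted too, with 62.4% wider, against 41.1 to 50.1% on the other chromosomes. The shift was thus not confined to endosperm-only loci. 2D was also the only chromosome with more ACRs at DAP9 than at DAP5 (6102 and 5739). Chromosome 6B was at the opposite end, with 28.1% wider and 50.5% narrower endosperm-only loci, and 4665 ACRs at DAP9 and 5653 at DAP5. What moved 2D and 6B was not tested.

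**Figure D2:**
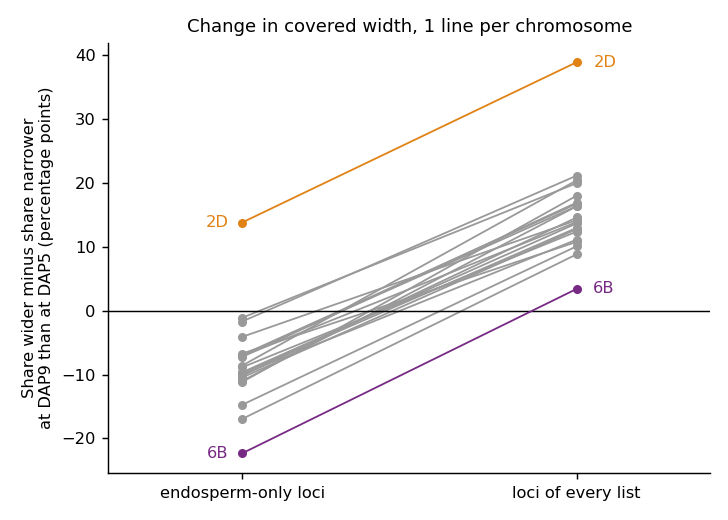
Share of loci wider at DAP9 than at DAP5 minus the share narrower at DAP9, in percentage points, for endosperm-only loci (left) and loci of every list (right), with 1 line per chromosome. All 21 lines go up from left to right. Chromosome 2D lies above the others in both sets and 6B below them, and 2D alone is above 0 in endosperm-only loci.

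The widest endosperm-only locus of each chromosome was examined. The widest of all spanned 4922 bp on 1B (533322494 to 533327415), with 3 DAP9 ACRs of 950, 2000 and 1400 bp over a DAP5 ACR of 4806 bp, and lay 77925 bp from the nearest seed ACR. The next 2 both spanned 4250 bp. On 3D (522195103 to 522199352), DAP9 ACRs of 2000 and 500 bp lay within a single DAP5 ACR that filled the locus. On 6A (109133847 to 109138096), 3 DAP9 ACRs of 1100, 1100 and 350 bp broke up a DAP5 ACR of 4250 bp. In each of these 3 loci, an unbroken DAP5 region was called in separate pieces at DAP9.

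The widest loci on 5D (304878089 to 304882038) and 6D (397081875 to 397085824) were 3950 bp each. DAP9 ACRs covered 1700 bp of the 5D locus and 350 bp of the 6D locus, against 3950 bp for DAP5 ACRs in both. The 5D locus was remote, with the nearest seed ACR 129306 bp away. The locus on 4A (489431429 to 489435124) was held by 2 staggered ACRs of each stage, covering 3250 bp at DAP9 and 2950 bp at DAP5. On 6B (676728176 to 676731825), ACRs covered 2950 bp at DAP9 and 3527 bp at DAP5, and a DAP20 ACR lay only 391 bp away.

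The next in this order, with 1 locus taken per chromosome, were on 2B (194379364 to 194382994, 2800 bp at DAP9 and 2800 bp at DAP5), 4D (420940964 to 420944507, 3500 bp at DAP9 and 2350 bp at DAP5) and 2A (775364030 to 775367474, 1850 bp at DAP9 and 3445 bp at DAP5). On the other 11 chromosomes, the widest locus spanned 2750 to 3350 bp. The largest gain was on 4A (620949755 to 620952504), with 2750 bp at DAP9 and 350 bp at DAP5. The largest loss was that of the 6D locus above, by -3600 bp.

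The seed ACR nearest to an endosperm-only locus was a median of 4.78 kb away (quartiles 1.37 and 23.7 kb). It lay within 150 bp for 277 loci (1.85%), within 500 bp for 1448 loci (9.65%, 9.19 to 10.1%) and within 1 kb for 2924 loci (19.5%, 18.9 to 20.1%). For 1475 loci (9.83%), no seed ACR lay within 100 kb. The nearest seed ACR belonged to DAP15 for 8160 loci and to DAP20 for 6780 loci, with 68 at equal distance. Of the mirror loci of DAP15 and DAP20 alone, a similar share lay within 1 kb of an endosperm ACR, 18.3% (17.5 to 19.2%). Their median distance was longer, at 5.86 kb, as was the upper quartile, at 33.8 kb. For 13.3% of the mirror loci, no endosperm ACR lay within 100 kb.

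Few loci sat at the overlap limits of the rule, and those near the density minimum of an ACR call could not be counted. Just inside it, the smallest overlap of a DAP9 with a DAP5 ACR was 2 bp (6B, 21488826 to 21490123), and 32 loci had an overlap under 50 bp. A locus on 6D (385699014 to 385700211) touched a seed ACR without sharing a base pair. Just outside it, a DAP9 and a DAP5 ACR lay 1 bp apart on 7B (453931878 to 453932878), and a locus on 3D (182602066 to 182603199) was left out for 1 bp shared with a seed ACR. Of the 16727 loci with ACRs of DAP5, DAP9 and 1 seed list, 45 shared under 50 bp with the seed ACR.

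Endosperm-only loci lay next to their own kind more often than their share of all loci. Of the 30016 places next to them, 1 on either side of each, 4326 held an endosperm-only locus (14.4%, 14.0 to 14.8%), compared with 8.32% among all loci. A locus between others of this kind fills more than 1 place, so the interval is only approximate. Endosperm-only loci with another on at least 1 side numbered 3959 (26.4%). Loci of every list made up 20.6% of the neighbours, against 23.8% of all loci, and loci of DAP15 and DAP20 alone 3.34% against 4.61%. Loci of DAP5 alone were 13.9% of the neighbours, against 10.9% of all loci. Mirror loci also lay next to their kind, at 6.66% of their neighbours against 4.61% of all loci.

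Runs of 3 or more adjacent endosperm-only loci numbered 300 and held 967 loci (6.44%). The 3 longest runs had 6 loci each. That on 4B (592705320 to 593136530) spread over 431 kb and included a locus of 2268 bp (593115283 to 593117550) with 1900 bp at DAP9 and 2266 bp at DAP5. It lay in the part of 4B beyond 300 Mb, where DAP15 ACRs were often missing. There, 35.3% of loci with ACRs of both DAP5 and DAP9 had a DAP15 ACR, against 72.3% on the other chromosomes. The part of this in the run was not tested. The runs on 6D were tighter, over 74.3 kb (449145587 to 449219918) and 89.9 kb (464520593 to 464610491), with loci of 383 to 878 bp. In windows of 1 Mb, the most endosperm-only loci were 15 of 87 loci on 6A (611 to 612 Mb), 13 of 102 on 2A (16 to 17 Mb) and 12 in each of 4 windows, on 1D (486 to 487 Mb, of 71 loci), 4D (497 to 498 Mb, of 76) and 6D (436 to 437 Mb, of 66, and 464 to 465 Mb, of 53). Of 14073 windows, 7151 (50.8%) held at least 1 endosperm-only locus.

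Across chromosomes, the share of endosperm-only loci among those with ACRs of both DAP5 and DAP9 varied little beyond 2 chromosomes. It was highest on 4B, at 23.9% (22.4 to 25.4%), and lowest on 6B, at 16.8% (15.6 to 18.1%), and lay between 18.2% (4A) and 22.1% (7D) on the other 19. Their density was highest on 5D, with 1.42 loci per Mb, and lowest on 1B, with 0.683. The first endosperm-only locus of 1B began only at 235386077, and the stretch before it held 29 of the 6009 loci of 1B, of any kind. Over the remaining 454 Mb, the density on 1B was 1.04 loci per Mb, and the lowest was then 0.813 on 4A. Why the lists were nearly empty there was not tested.

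**Figure D3:**
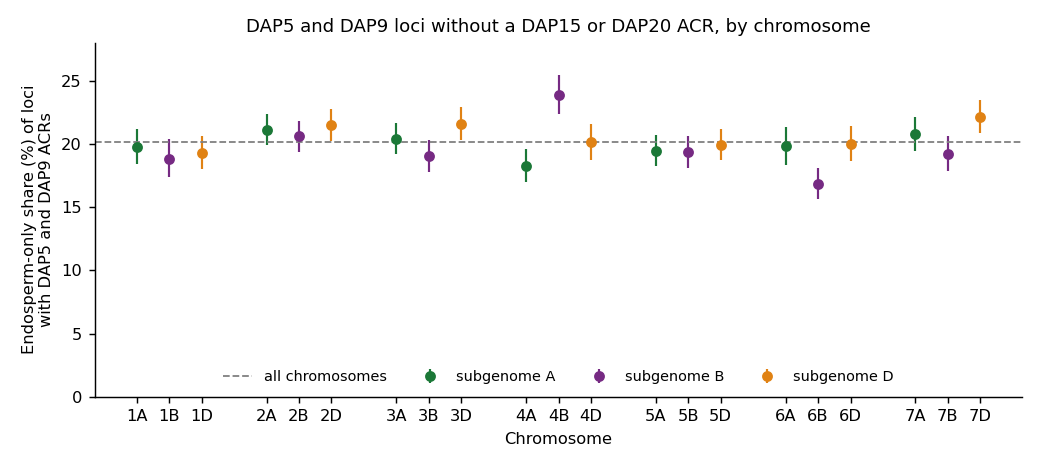
Share (%) of endosperm-only loci among loci with ACRs of both DAP5 and DAP9 on each chromosome, coloured by subgenome, with Wilson 95% intervals as bars. The dashed line is the share over all chromosomes, 20.1%. Chromosome 4B is highest at 23.9% and 6B lowest at 16.8%.

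The high share on 4B was uneven along the chromosome. Up to 300 Mb it was 12.9% (11.03 to 15.1%, 135 of 1044 loci), and beyond 300 Mb it was 29.7% (27.7 to 31.8%, 585 of 1970 loci), against 20.0% on the other chromosomes. The rise began beyond 400 Mb, with 14.9% between 300 and 400 Mb (11.1 to 19.8%), 42.7% between 400 and 500 Mb (37.6 to 48.0%) and 27.4% in the last window (24.6 to 30.5%). Beyond 300 Mb, 35.0% of the loci had a DAP20 ACR but none of DAP15, against 7.74% on the other chromosomes, and 1.83% had a DAP15 ACR but none of DAP20, against 14.2%. An ACR of DAP15 was thus present in 35.3% of the loci beyond 300 Mb (695 of 1970), against 72.3% on the other chromosomes. The DAP20 ACR without a DAP15 ACR was also frequent between 200 and 300 Mb, at 39.2%, where the endosperm-only share was 17.0%. The part of the missing DAP15 ACRs in the count of endosperm-only loci was not tested. Without 4B, 14288 endosperm-only loci were left, with the same 20.0%.

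**Figure D4:**
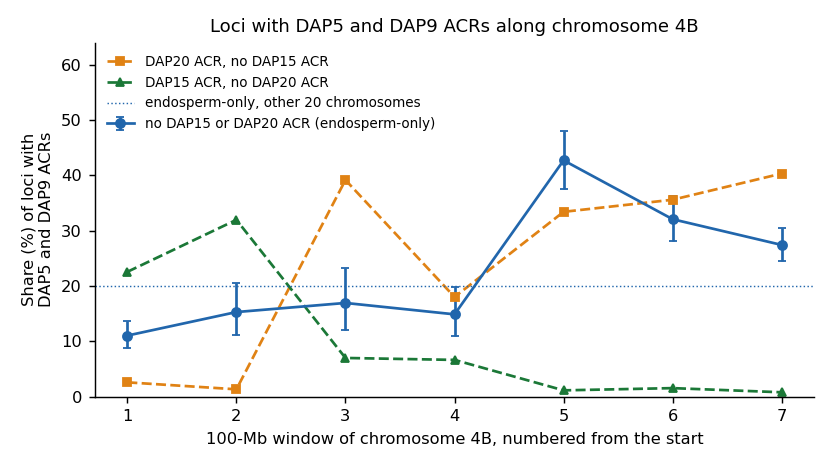
Loci with ACRs of both DAP5 and DAP9 in successive 100-Mb windows of chromosome 4B, numbered from its start (the last one is cut by the chromosome end). Blue points are the share (%) without a seed ACR with Wilson 95% intervals, orange squares the share with a DAP20 but no DAP15 ACR, green triangles the share with a DAP15 but no DAP20 ACR, and the dotted line the endosperm-only share of 20.0% on the other 20 chromosomes. The blue share is highest in window 5, at 42.7%, and the orange share is high in window 3 and in windows 5 to 7, where the green share is lowest.

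Bread wheat is a hexaploid, and its A, B and D chromosomes fall into 7 homoeologous groups. The density of endosperm-only loci averaged 1.0 ± 0.125 per Mb over the A chromosomes, 0.904 ± 0.145 per Mb over the B chromosomes and 1.35 ± 0.0738 per Mb over the D chromosomes (SD, n = 7 each). A was below D by -0.35 loci per Mb and B below D by -0.45, each in 7 of 7 groups (exact two-sided sign-flip permutation p = 0.0156, the smallest possible, adjusted 0.0469 over 6 tests). A exceeded B in 6 of 7 groups, by 0.10 loci per Mb, which did not pass (exact permutation p = 0.203, adjusted 0.305). In number per chromosome, not divided by length, A was below D by -55.1 and B below D by -95.9 loci, and neither passed (adjusted exact permutation p = 0.188 and 0.219). With 1B counted from its first endosperm-only locus, A minus B was 0.050 and B minus D -0.40 loci per Mb, and the calls were the same. Without homoeologous group 1, A was below D by -0.35 and B below D by -0.40 loci per Mb, each in 6 of 6 groups, but neither passed (exact permutation p = 0.0312, the smallest possible with 6 groups, adjusted 0.0625). The settings for 1B and for group 1 were added after the data were seen. Chromosomes are not biological replicates.

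Loci with ACRs of both DAP5 and DAP9 were also densest on the D chromosome in every group. In group 2, for example, they numbered 6.36 per Mb on 2D, 5.45 on 2A and 5.15 on 2B. Relative to these loci, the subgenomes were closer. The endosperm-only share averaged 19.9 ± 0.959% over the A chromosomes, 19.7 ± 2.17% over the B chromosomes and 20.6 ± 1.07% over the D chromosomes (SD, n = 7 each). A lay below D in 6 of 7 groups, by -0.721 percentage points (exact permutation p = 0.0625, adjusted 0.125). B lay below D in 6 of 7 groups, by -0.967 percentage points (exact permutation p = 0.297, adjusted 0.356). A lay above B in 6 of 7 groups, by 0.246 percentage points (exact permutation p = 0.828, adjusted 0.828). None of these passed. Group 4 decided 3 of the 6 calls, since 4B was the only B chromosome above its A and D partners in this share. It was also the only one above its A partner in density. Without group 4, A exceeded B by 1.23 percentage points and by 0.16 loci per Mb, and B was below D by -1.76 percentage points, each in 6 of 6 groups (exact permutation p = 0.0312, the smallest possible with 6 groups, adjusted 0.0375). With the only opposing group left out, this outcome was fixed in advance and is no support.

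Along the chromosomes, the endosperm-only share was low in a single stretch. Between 30 and 50% of the chromosome length, counted from the start of the coordinates, they made up 14.7% of the loci with ACRs of both DAP5 and DAP9 (14.0 to 15.5%, 1233 of 8365), against 20.8% in the rest (20.5 to 21.1%). The share was lower there on 19 of 21 chromosomes, the exceptions being 5B (23.9% against 18.7%) and 5D (20.3% against 19.9%). On 1B (18.75% against 18.85%) and 6B (16.6% against 16.8%), counted among the 19, the shares were nearly equal. The share over all chromosomes was highest between 60 and 70% of the length, at 24.98% (23.9 to 26.1%). Over the whole inner part, between 20 and 80% of the length, the share was 20.96% (20.5 to 21.4%), against 19.6% in the outer parts (19.2 to 19.9%), and it was higher in the inner part on 15 of 21 chromosomes. A dip there was also found in the loci missing at DAP20 alone. They made up 13.5% and 12.9% of the loci in the bins between 30 and 50%, 18.1% between 20 and 30%, and 17.9% and 18.0% in the bins between 50 and 70%. The dip was thus not particular to endosperm-only loci. Unlike these, the loci missing at DAP20 alone were also low at the ends, with 13.1% in the first bin and 10.9% in the last. Loci missing at DAP15 alone had no such dip. They made up 8.55% and 7.53% in the bins between 30 and 50%, 6.41% between 20 and 30%, and 7.76% and 7.18% between 50 and 70%. Without the sparse chromosome 1B, the endosperm-only share was 14.6% between 30 and 50% of the length and 20.9% in the rest. Within loci of up to 350 bp at DAP9, the shares were 30.9% between 30 and 50% of the length (28.6 to 33.4%) and 35.1% in the rest (34.2 to 36.0%), and over 950 bp they were 3.96% (3.25 to 4.82%) and 7.68% (7.31 to 8.07%), so the difference was found in narrow and in wide loci. These limits were set after the profile had been seen.

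**Figure D5:**
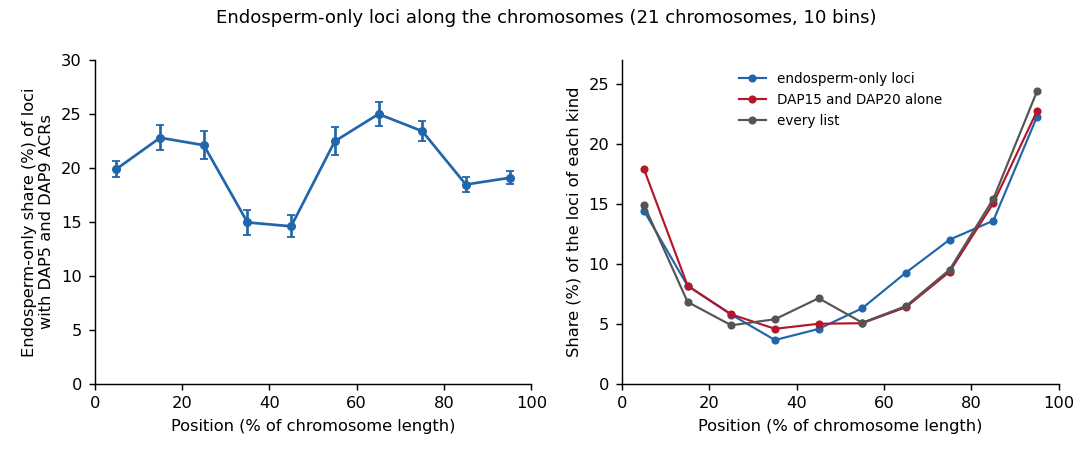
Left, share (%) of endosperm-only loci among loci with ACRs of both DAP5 and DAP9 in 10 bins of relative chromosome position, over 21 chromosomes, with Wilson 95% intervals. Right, how endosperm-only loci, loci of DAP15 and DAP20 alone and loci of every list divide over the same bins (%). The share at left is near 15% between 30 and 50% of the length and reaches 24.98% between 60 and 70%.

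At the chromosome ends, taken as the outer 20% of the length at either end, lay 58.4% of the endosperm-only loci (57.6 to 59.2%). Of the mirror loci, 63.9% lay there (62.8 to 64.9%), and of the loci of every list 61.5% (61.1 to 62.0%). Endosperm-only loci were below the mirror loci on 18 of 21 chromosomes and below the loci of every list on 15. With ends of 30%, they were above the loci of every list (76.2% against 75.9%), so that the order of these 2 sets depended on the length of an end. Among loci missing from a single seed list, 53.9% lay at the ends where the DAP20 ACR was missing and 64.6% where the DAP15 ACR was missing.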

How the data were processed

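ATAC-seq of AK58 grain was analysed at 4 stages, with groups taken from the sample titles. The authors deposited, per stage, a list of ACR coordinates in base pairs without a count, score or signal. According to the study's methods, reads were trimmed with fastp (the submitters' processing notes name Trimmomatic 0.36), aligned with Bowtie2 and freed of duplicates with Picard. MACS2 peaks were cut into bins of 150 bp, bins above a density minimum of Tn5 insertions were joined across gaps of up to 150 bp, and peaks on a blacklist from control samples were dropped. That minimum, the genome build and any pooling of replicates are not given in the sources used here. These steps set the widths and limits of ACRs, so a difference between lists can also stem from them.

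ACRs sharing at least 1 bp were merged into loci. Coordinates are 1-based, and the largest end coordinate stood for the chromosome length. For the subgenomes, the signs of the differences within the 7 homoeologous groups were flipped in every combination (an exact permutation test, two-sided), followed by Benjamini-Hochberg adjustment over 6 tests and a threshold of 0.05. All other comparisons are descriptions with Wilson 95% intervals and numbers of chromosomes, since 1 list per stage allows no test. Loci named were the widest of each chromosome, those with the largest change in width, the longest runs, the fullest 1-Mb windows and those at the limits of the rule. The members, lists and tests were chosen with earlier results of these data known. The merging and the permutation test were tested on simulated data. Calculations ran in Python 3.11.15 (pandas 2.3.3, numpy 2.4.6, scipy 1.17.1), and figures were drawn with matplotlib 3.10.9. Genes and sequences of the loci were not analysed here.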

Additional observations from a re-analysis of the deposited data

How the results depend on the processing

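No paired analysis was possible because each stage had 1 list and none per replicate, so no replicate could be left out either. Depth is unknown, and weakly accessible loci near the density minimum can fall on either side of the rule. The number of endosperm-only loci lay between 12800 and 18860 in all recalculations except with the 50000 widest ACRs of each list, which left 8233. Their share of loci with ACRs of both DAP5 and DAP9 was 20.5% with ACRs under 300 bp left out, 21.6% with those under 350 bp left out, 24.2% with the 50000 widest, 18.1% when ACRs up to 500 bp apart were joined, 23.6% with ACRs cut to 350 bp at the midpoint, 18.2% when no seed ACR was allowed within 500 bp, and 29.6% with a reciprocal overlap of 50% (18860 pairs of ACRs). The share at the ends was 57.3% with merging within 500 bp, 59.3% with midpoints, and 36.7% and 76.2% for ends of 10% and 30%. The share wider at DAP9 was 31.3% without ACRs under 350 bp (42.3% narrower). In settings added after the data were seen, it was 32.6% without 2D (42.0% narrower) and 31.6% with ACRs on the width steps alone (38.2% narrower). It stayed below the share narrower in each setting tried. The subgenome differences kept their direction in each setting. Without homoeologous group 4, A minus B came to 0.160 loci per Mb and 1.23 percentage points and B minus D to -1.76 percentage points, and these passed. Group 4 was the only group that went the other way in them, so this outcome was fixed in advance. Without group 1, a setting added after the data were seen, A minus D (-0.35) and B minus D (-0.40 loci per Mb) no longer passed. In loci per chromosome, A minus D (-55.1) and B minus D (-95.9) no longer passed. For the other changes, the cause was not tested.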

Other observations

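The shift of chromosome 2D extended over most of its length. In 100-Mb windows, the endosperm-only loci on 2D were more often wider than narrower at DAP9 in the 6 windows up to 600 Mb, with 40 to 56.1% wider and 24.0 to 39.3% narrower, the lowest value resting on 30 loci between 200 and 300 Mb. In the last window, from 600 Mb, 41.6% were wider and 42.9% narrower. Loci of every list on 2D were more often wider in all 7 windows, from 56.0% to 68.1%. The ratio of ACR numbers, DAP9 over DAP5, was 1.06 on 2D and between 0.825 (6B) and 0.978 on the other chromosomes.

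Most endosperm-only loci stood singly, although they lay next to each other more often than their share of all loci. Of all of them, 11049 (73.6%) had no other endosperm-only locus next to them. Of the places next to them, 14.4% were endosperm-only, against 8.32% of all loci. In the 566 windows of 1 Mb that held 5 or more lay 3473 (23.1%), and the share of all loci in these windows was not calculated.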
